A study of Capra hircus with 2 samples.

Results

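Heat shock proteins and chaperones were examined as 5 transcripts in longissimus thoracis, a muscle along the back, of Chinese Xuhuai goats (Capra hircus). They were chosen by their cattle RefSeq accessions, with the symbols given with that choice, out of 11663 accessions with reads in either library. The small heat shock proteins were HSPB1 (NM_001025569) and CRYAB (NM_174290). The general chaperones were HSPA8 (NM_174345), HSPA5 (NM_001075148) and HSP90AA1 (NM_001012670). All 5 had reads in both libraries. One library came from muscle of goats aged 6 months, and the other from the same muscle of fetuses on day 90, with gestation lasting 150 days. No treatment, transgene or mutation is named for either group. How many animals each library holds is not stated. The labels describe the sampling of both muscles with the same words, on fetuses taken from slaughtered animals, so how the older muscle was collected and how soon it was frozen is unknown. With 1 library per stage no difference below has a replicate check, and the intervals cover counting error only. They treat reads as independent molecules, so they are too narrow where several reads are copies of the same molecule.

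Chaperones bind unfolded or partly folded proteins and keep them from clumping. The small heat shock proteins do so without using ATP and hold their clients until ATP-driven chaperones of the HSP70 and HSP90 families refold them. Striated muscle is known for its high content of small heat shock proteins, which associate with desmin, actin and the Z-disc under stretch and contraction. The general chaperones serve all cells: HSPA8 folds newly made proteins in the cytosol, HSP90AA1 completes the folding of kinases and steroid receptors, and HSPA5 (also called BiP) folds secreted and membrane proteins in the endoplasmic reticulum.

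The stages differed in which chaperones led. Both small heat shock proteins were higher at 6 months, CRYAB about 13-fold and HSPB1 about 4-fold. Of the general chaperones, HSPA5 was about 4-fold lower at 6 months, HSPA8 was nearly level and HSP90AA1 was 0.31 log2 units lower, but both lay toward 6 months after centring on the median ratio. Levels are given as RPKM, the authors' reads normalised to the transcript's length and the library's total. Differences are log2(RPKM + 1) of the 6-month library minus that of the fetal library, and a transcript was called when this reached 1, about 2-fold. The libraries held 9144138 unique reads at 6 months and 12811117 in fetal muscle. Of the 9705 accessions compared, those reaching an RPKM of 1 in 1 or both libraries, 9.46% were called higher at 6 months and 35.1% higher in fetal muscle. Among the 5 chaperones, 2 were called higher at 6 months, 1 was called higher in fetal muscle and 2 were called in neither direction. In bulk muscle, fewer cells of a type and less RNA per cell cannot be told apart. The median difference over the 5, which is the value of HSPA8, was -0.02, beside -0.61 over all accessions compared (interquartile range -1.30 to 0.14). Over the 720 that averaged 100 RPKM or more, as all 5 did, the median was -0.14.

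**Figure D1:**
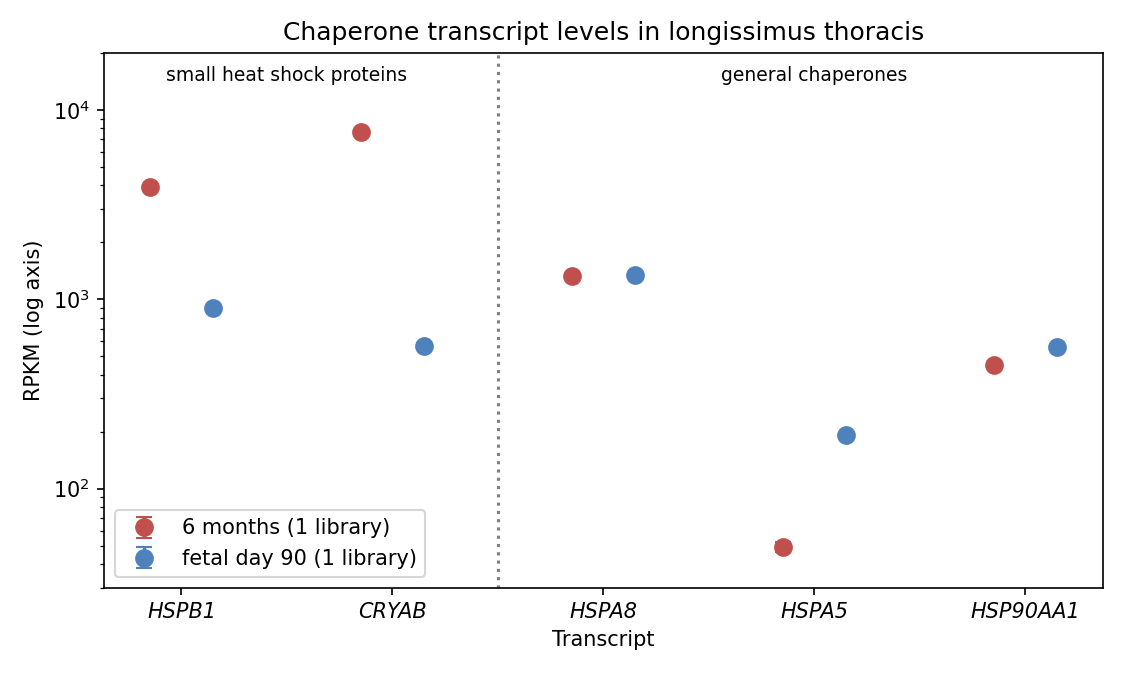
RPKM (log axis) of the 5 chaperone transcripts, with the 6-month library left of the fetal library for each transcript. Points are single libraries and bars are 95% Poisson intervals, often smaller than the point. HSPB1 and CRYAB lie higher at 6 months, HSPA5 lies lower, and HSPA8 has 1322 RPKM at 6 months and 1339.9 RPKM in fetal muscle.

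CRYAB, the alpha B-crystallin that guards desmin filaments and is also a main protein of the eye lens, had the largest difference of the 5. It had 44270 reads at 6 months and 4601 reads in fetal muscle, on a transcript of 632 bases. Its level was 7660.4 RPKM at 6 months (95% interval 7589 to 7732) and 568 RPKM in fetal muscle (552 to 585). The difference was 3.75 log2 units, and the share of reads was 13.5-fold higher at 6 months (exact binomial 95% interval 13.1 to 13.9). CRYAB thus went beyond the call threshold by far more than its counting error. It ranked 10 by RPKM among the 10850 accessions listed at 6 months and 155 among the 11393 listed in fetal muscle. CRYAB alone took 0.484% of all reads at 6 months (exact 95% interval 0.480 to 0.489%) and 0.0359% in fetal muscle (0.0349 to 0.0370%). Only 0.63% of the accessions compared had a larger difference toward 6 months.

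HSPB1, also known as HSP27, binds actin filaments and is made in many cell types beside muscle. It had 29249 reads at 6 months and 9375 reads in fetal muscle, on 812 bases. Its level was 3939 RPKM at 6 months (3894 to 3985) and 901 RPKM in fetal muscle (883 to 920). The difference was 2.13 log2 units, and its share of reads was greater at 6 months by 4.37-fold (4.27 to 4.47). HSPB1 stood at rank 20 at 6 months and at rank 125 in fetal muscle. Of the accessions compared, 3.09% had a larger difference toward 6 months.

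The small heat shock proteins did not move by the same factor. HSPB1 was the more abundant of the pair in fetal muscle and CRYAB at 6 months. CRYAB stood at 1.94 times the RPKM of HSPB1 at 6 months and at 0.631 times in fetal muscle. This ratio, which does not depend on how the libraries are scaled, was 3.08-fold higher at 6 months (exact conditional 95% interval 2.97 to 3.20). Of the RPKM by which the pair together exceeded the fetal level at 6 months, CRYAB made up 70.01% and HSPB1 29.99%.

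HSPA8, the constitutive cytosolic HSP70, was the most abundant of the 5 in fetal muscle and stood below both small heat shock proteins at 6 months. It had 27467 reads at 6 months and 39000 reads in the deeper fetal library, on 2272 bases. Its level was 1322 RPKM at 6 months (1307 to 1338) and 1339.9 RPKM in fetal muscle (1327 to 1353). The difference was -0.02 log2 units, and the ratio of read shares, 0.987 at 6 months over fetal, had an interval of 0.972 to 1.002 that includes 1. A difference was therefore not detectable at this depth on the deposited scale. After centring both libraries on their median ratio the same counts gave 0.56 log2 units toward 6 months, still under the threshold. The centring removes a shift of -0.58 log2 units, the median log2 ratio of 6-month to fetal RPKM over the 8201 accessions that reached an RPKM of 1 in each library.

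HSP90AA1, the stress-inducible cytosolic HSP90, had 12574 reads at 6 months and 21872 reads in fetal muscle, on 3065 bases. Its level was 449 RPKM at 6 months (441 to 457) and 557 RPKM in fetal muscle (549.7 to 564). The difference of -0.31 log2 units did not reach the threshold. The ratio of read shares was 0.805 at 6 months over fetal (0.788 to 0.823), which is beyond counting error. Its direction depended on the scaling, since centring on the median ratio gave 0.27 log2 units. HSPA8 had 2.95 times the RPKM of HSP90AA1 at 6 months and 2.41 times in fetal muscle. This change of 1.23-fold (1.19 to 1.26) was small but beyond counting error.

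HSPA5, the HSP70 of the endoplasmic reticulum and a regulator of the unfolded protein response, was the least abundant of the 5 in both libraries. It had 1106 reads at 6 months and 6019 reads in fetal muscle, on 2460 bases. Its level was 49.2 RPKM at 6 months (46.3 to 52.2) and 191 RPKM in fetal muscle (186 to 196). The difference was -1.94 log2 units, and its share of reads was greater in fetal muscle by 3.88-fold (3.64 to 4.15). HSPA5 stood at rank 1227 at 6 months and at rank 388 in fetal muscle. Against all accessions compared, this difference is less unusual than those of the small heat shock proteins. Of these accessions, 11.8% lay further toward the fetal library and 35.1% were called in that direction. Among the 720 with a mean of 100 RPKM or more, 16.8% lay further toward the fetal library than HSPA5. In the same set, 13.75% lay further toward 6 months than HSPB1. HSPA5 reached that mean only through the fetal library, so its place among the 720 is tied to its difference. Relative to HSPA8 of the same family, HSPA5 was 3.83-fold lower at 6 months (3.59 to 4.10): HSPA8 had 26.9 times the RPKM of HSPA5 at 6 months and 7.02 times in fetal muscle.

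**Figure D2:**
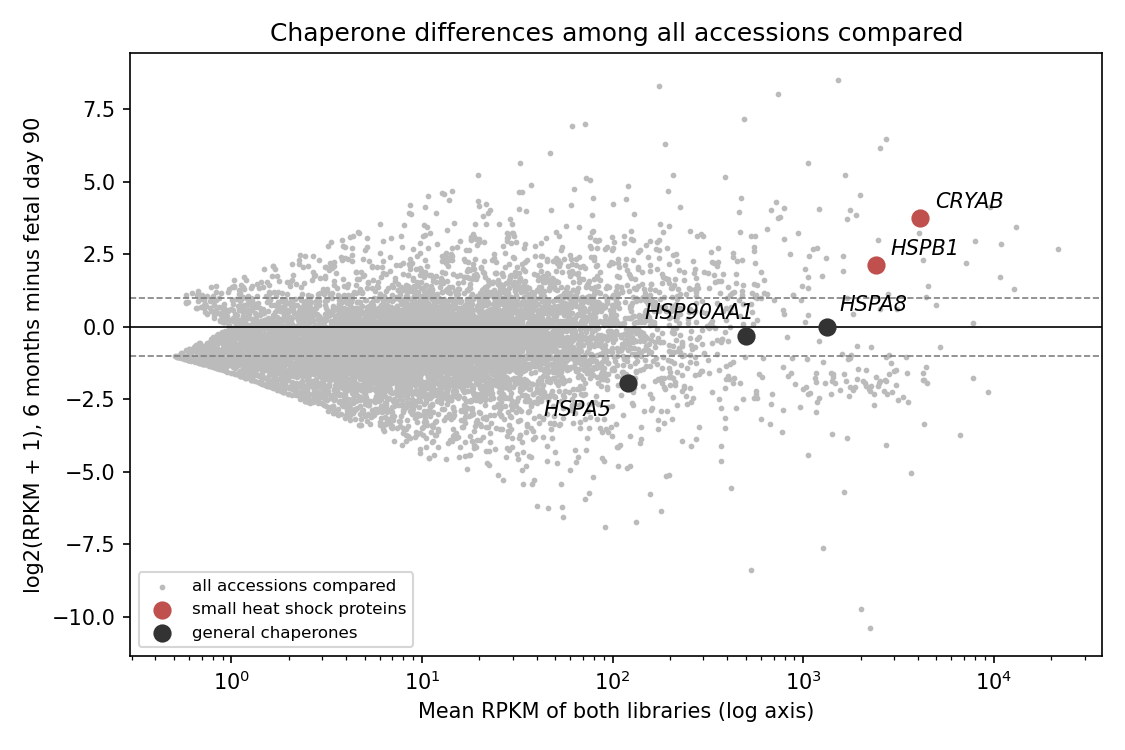
Difference in log2(RPKM + 1), 6 months minus fetal day 90, against the mean RPKM of both libraries (log axis) for the 9705 accessions compared (grey), with the 5 chaperones marked. Dashed lines mark 1 log2 unit each way. CRYAB at 3.75 and HSPB1 at 2.13 lie above the upper line, HSPA5 at -1.94 lies below the lower one, and HSPA8 and HSP90AA1 lie between them.

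All 5 transcripts averaged 100 RPKM or more over the libraries, where differences toward 6 months were more common. Of the 720 accessions at or above that mean, 29.4% were called higher at 6 months and 34.2% higher in fetal muscle, with a median difference of -0.14. Within these 720, 3.89% had a larger difference toward 6 months than CRYAB and 13.75% a larger one than HSPB1. HSPA8 lay near the middle, with 51.9% of the 720 below it, and so did HSP90AA1, with 46.8% below it. HSPA5, which reached that mean only through the fetal library, had 16.8% of the 720 further toward that library. CRYAB and HSPB1 each stood out less among these 720 than among all accessions compared. A mean over both libraries also admits transcripts high in a single library, so these shares depend in part on the filter.

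Set against the general chaperones, the small heat shock proteins changed from the minor to the major share. HSPB1 and CRYAB together had 11600 RPKM at 6 months and 1469 RPKM in fetal muscle. HSPA8, HSPA5 and HSP90AA1 together had 1819.9 RPKM at 6 months and 2088 RPKM in fetal muscle. The summed level was thus 7.89-fold higher at 6 months for the small heat shock proteins, and 0.872 times the fetal level for the general chaperones, which became 0.38 log2 units toward 6 months after median centring. The small heat shock proteins made up 86.4% of the RPKM of all 5 at 6 months and 41.3% in fetal muscle. Small over general RPKM came to 6.37 at 6 months and 0.704 in fetal muscle, a difference of 3.18 log2 units or 9.06-fold (delta-method 95% interval 8.86 to 9.26, counting error only). As a ratio within each library it is unaffected by scaling.

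**Figure D3:**
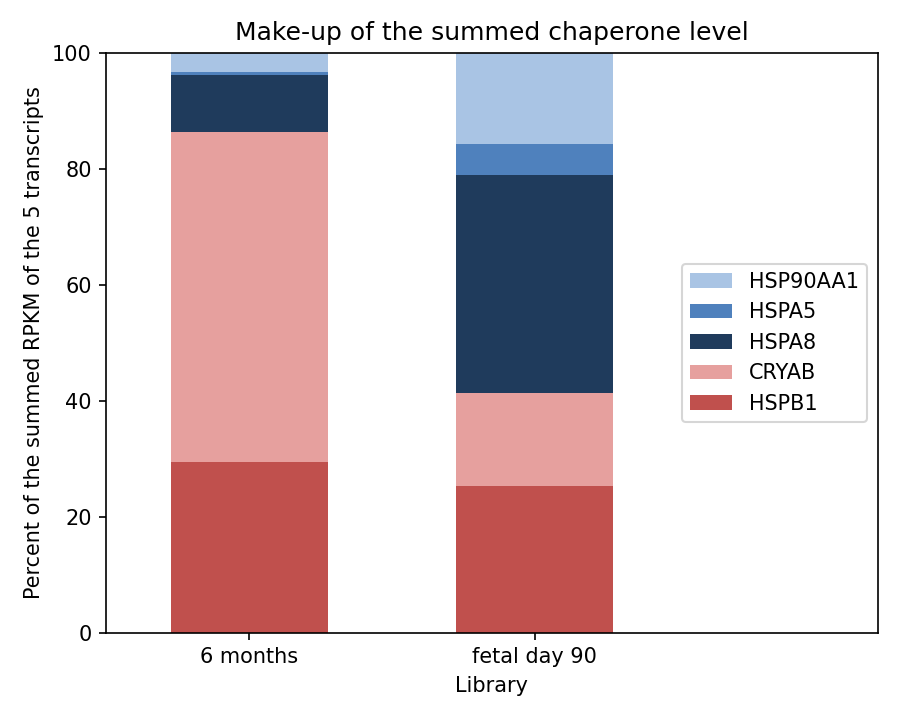
Percent of the summed RPKM of the 5 chaperone transcripts held by each, in the 6-month library (left bar) and the fetal library (right bar). CRYAB holds 57.1% at 6 months and 15.97% in fetal muscle, and HSPA8 holds 9.85% at 6 months and 37.7% in fetal muscle.

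In reads rather than RPKM, the small heat shock proteins took 0.804% of the 6-month library (0.798 to 0.810%) and 0.109% of the fetal library (0.107 to 0.111%). The general chaperones took 0.450% of reads at 6 months (0.446 to 0.454%) and 0.522% in fetal muscle (0.518 to 0.526%). The 5 together took 1.25% of reads at 6 months and 0.631% in fetal muscle, and the small heat shock proteins account for the larger value at 6 months. The gene table used here holds none of the accessions, so markers of fibres and of other cell types were not analysed here.

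Each of the 6 pairs of a small heat shock protein with a general chaperone had a higher ratio at 6 months. These pairs share members and are not independent, and their common direction follows from the differences of the single transcripts given above. CRYAB against HSPA5 spanned the widest range: the RPKM of CRYAB was 156 times that of HSPA5 at 6 months and 2.98 times in fetal muscle, a ratio 52.4-fold higher at 6 months (48.8 to 56.3). CRYAB against HSPA8 was 5.79 at 6 months and 0.424 in fetal muscle, 13.7-fold higher at 6 months (13.2 to 14.1). CRYAB against HSP90AA1 was 17.1 at 6 months and 1.02 in fetal muscle, where the pair stood level. HSPB1 against HSPA8 showed the smallest of the 6 changes, with 2.98 at 6 months and 0.673 in fetal muscle, 4.43-fold higher at 6 months (4.31 to 4.56).

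The order of levels also differed. At 6 months it ran CRYAB, HSPB1, HSPA8, HSP90AA1, HSPA5, and no neighbouring intervals overlapped. In the fetal library it ran HSPA8, HSPB1, CRYAB, HSP90AA1, HSPA5, and CRYAB and HSP90AA1 did not differ beyond counting error. The span from the highest to the lowest of the 5 was 156-fold at 6 months, between CRYAB and HSPA5, and 7.02-fold in fetal muscle, between HSPA8 and HSPA5.

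No other transcript stood at nearly the same levels as CRYAB, HSPB1 or HSPA8 in both libraries. Within 0.25 log2 units in both libraries lay 0 other accessions for each of these 3, 2 for HSP90AA1 and 19 for HSPA5. With 2 libraries this likeness rests on 2 values per accession. It depends on the levels as well as the difference, and few transcripts are as abundant. At 6 months CRYAB, HSPB1 and HSPA8 ranked 10, 20 and 70 of 10850. How many equally abundant transcripts also lack a neighbour was not computed, so the counts of 0 do not mark these differences as unusual.

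Reads covered most of each transcript in both libraries. HSPB1 was covered over 99.75% of its length at 6 months and 99.88% in fetal muscle. HSPA8 was covered over 96.6% at 6 months and 96.7% in fetal muscle, and HSP90AA1 over 93.4% at 6 months and 95.1% in fetal muscle. HSPA5 was covered over 95.6% at 6 months and 98.9% in fetal muscle, where it had more reads. CRYAB was the least covered of the 5, with 93.2% at 6 months and 87.5% in fetal muscle, which leaves 43 bases at 6 months and 79 bases in fetal muscle without a read. Its mean depth, at the 90 bases that 1 read spans, was 6304 read-bases per base at 6 months and 655 in fetal muscle. The 426 accessions read to a depth of 100 or more in each library had a median coverage of 91.8% at 6 months and 91.5% in fetal muscle. Of these 426, 57.7% were less covered than CRYAB at 6 months and 34.5% in fetal muscle. The 426 were not matched to the depth of CRYAB.

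Reads of goat RNA are listed under cattle accessions, and how many were lost to differences in sequence was not measured. Related genes also limit what these counts say of a single gene. HSP70 and HSP90 proteins have close paralogues, among them inducible HSP70s and HSP90AB1, and HSPA8 has processed copies in mammalian genomes. The file headers name the reads unique, but how reads matching several transcripts were handled is not stated, so the values of HSPA8 and HSP90AA1 are uncertain in this respect. In the goat RefSeq gene table (assembly ARS1.2), 0 genes overlap any of the 5. CRYAB lies beside HSPB2, another small heat shock protein of muscle, and HSPA5 beside RABEPK and GAPVD1. The table pairs none of the accessions in the files with a symbol, so HSPB2 and other chaperones were not analysed here.

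**Figure D4:**
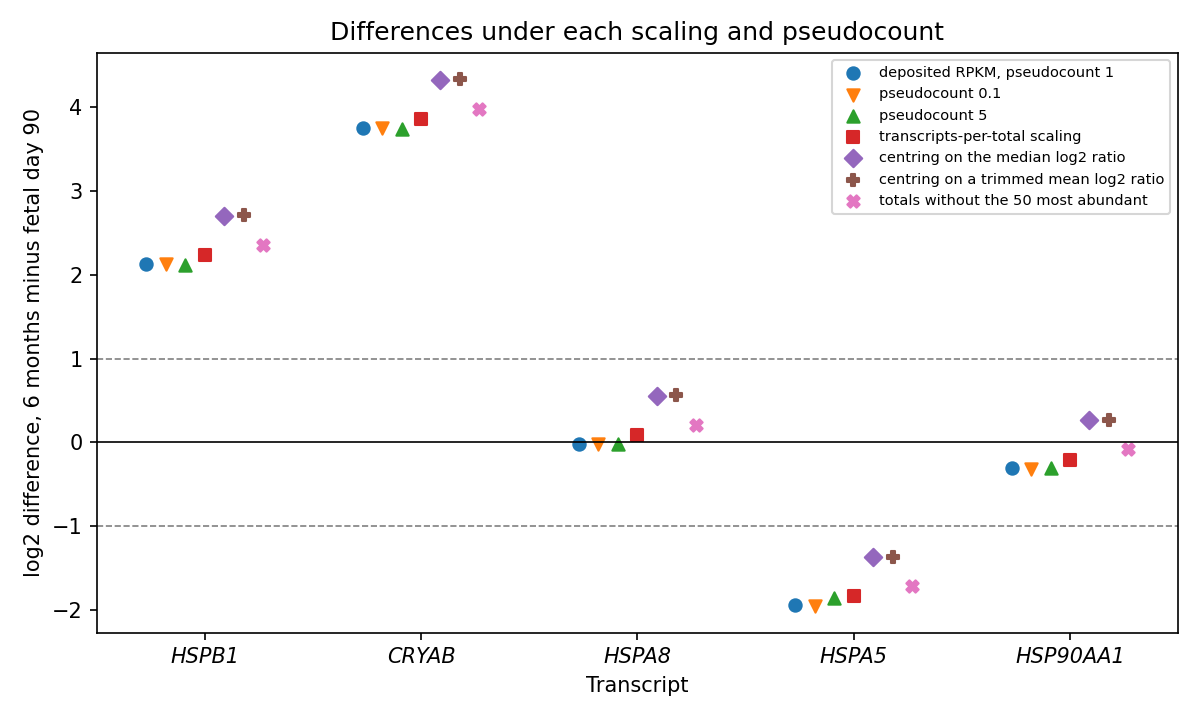
Log2 difference, 6 months minus fetal day 90, of each chaperone under the deposited RPKM and 6 alternative pseudocounts and scalings (marker shapes). Dashed lines mark 1 log2 unit each way. CRYAB (3.74 to 4.33) and HSPB1 (2.12 to 2.71) stay above the upper line and HSPA5 (-1.96 to -1.36) stays below the lower one, while HSPA8 and HSP90AA1 stay between the lines with either sign.

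Across these settings the calls of all 5 chaperones held in each of the 30 recomputed values. HSPA8 ranged from -0.02 to 0.56 log2 units and HSP90AA1 from -0.31 to 0.27, so neither has a settled direction between the stages. Once the libraries were centred on their median ratio, 17.2% of the accessions compared were called higher at 6 months and 22.3% higher in fetal muscle, and CRYAB, HSPB1 and HSPA5 differed by 4.33, 2.70 and -1.37 log2 units.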

How the data were processed

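RNA sequencing of longissimus thoracis gave 1 library per stage, grouped by the labelled age. Per the labels' protocols, tissue was snap-frozen, Trizol was used for RNA and Illumina's standard procedure for the libraries. The authors deposited, per the file headers, a row for each transcript accession with the count of unique reads, the length, the percent of the length covered (coverage) and the RPKM. The aligner, counting rules, strand use and genome build are not stated in the labels or headers. Deposited counts summed exactly to the header totals, and the authors' RPKM was recovered from count, length and total to within a relative tolerance of 1e-06 for all 10850 6-month and 11393 fetal accessions. An accession missing from a list has 0 reads.

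No test across animals is possible with 1 library per group, so no p-value was computed. The log2 difference used a pseudocount of 1, an RPKM minimum of 1 in either library and a threshold of 1. Intervals (95%) were exact binomial for read shares and their ratios, exact conditional for ratios of pairs, Poisson for RPKM and delta-method for sums. The 5 members and the classes were chosen with earlier results of these data known. Named were the 5 members. A further list of chaperones and the cell type markers could not be used, since 0 of 11663 accessions were found in the goat gene table. The symbols of the members come from that choice, not from the files. Alternatives covered the pseudocount, scaling, RPKM minimum, threshold and chaperone class. The tools were SciPy 1.17.1 and NumPy 2.4.6 for intervals, pandas 2.3.3 for tables and matplotlib 3.10.9 for plots, under Python 3.11.15.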

Additional observations from a re-analysis of the deposited data

How the results depend on the processing

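No paired analysis was possible because each stage has 1 library, and for the same reason no replicate could be left out. Pseudocounts of 0.1 and 5 moved each of the 5 chaperone differences by less than its counting error, taken as 0.5 of the width of the 95% interval (HSPA5 moved most, to -1.86 with a pseudocount of 5), and the calls of all 5 held under all 6 alternatives (log2 units, 6 months minus fetal). With transcripts-per-total scaling the differences were 2.23 for HSPB1, 3.86 for CRYAB, 0.087 for HSPA8, -1.84 for HSPA5 and -0.21 for HSP90AA1. With median centring they were 2.70, 4.33, 0.56, -1.37 and 0.27 in the same order, and with trimmed mean centring 2.71, 4.33, 0.56, -1.36 and 0.27. When the 50 most abundant accessions were left out of both totals they were 2.36, 3.98, 0.21, -1.71 and -0.082. The scaling itself moves each member by nearly the same amount, so HSPA8, which starts near 0, turned positive under each other scaling. HSP90AA1 turned positive only under median and trimmed mean centring. Of the 30 recomputed values, 20 moved by more than the counting error, all of them under another scaling. The size of each fold difference is therefore less certain than its interval shows. Small against general chaperones came to 3.08 log2 units without HSPA5, against 3.18 with it, and to 3.17 with a pseudocount of 5, while scaling leaves this ratio as it is by construction. The number of accessions called higher at 6 months (918) became 1674 with median centring, 1678 with the trimmed mean and 339 with a threshold of 2 log2 units. The number called higher in the fetal library (3411) became 2162, 2157 and 1051 under the same settings, and 1811 with a pseudocount of 5. Depth limits the 5 chaperones little, as the lowest count is 1106 reads. The spread between animals is unknown.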
